A study of Mus musculus with 15 samples.

Results

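Bone marrow-derived macrophages (BMDMs) that had been held in IL-4 and then given nanoparticles loaded with IRF5 mRNA (IRF5-NP) were compared with BMDMs held in IL-4 alone (IL4). The members were chosen by sample title: 3 IRF5-NP samples, numbered 1, 2 and 4, and 4 IL4 samples, numbered 1 to 4, which make up 7 of the 15 samples of the series. RNA was counted with the nCounter Myeloid Innate Immunity panel, in which a colour-coded probe pair binds each target RNA and is counted without amplification, and 754 genes were read after the control probes were set aside. By the labels, marrow was taken from mouse femurs, the cells grew for 7 days with 20 ng/mL M-CSF, and both groups then received 20 ng/mL IL-4, with an exposure time of 4 days. The IRF5-NP cells were additionally incubated with 1 µg of nanoparticles for 1 h and washed, while the labels list no particle treatment for the IL4 cells. The methods of the study name a larger amount, given as mRNA, and add that IKKβ mRNA was packed with the IRF5 mRNA, together with some eGFP mRNA to report uptake, that the most strongly eGFP-positive cells were sorted, and that these cells went back into a lower dose of IL-4 before RNA isolation. No such sort is described for the IL4 standards, so the cargo, the particle, the sort and the second culture cannot be told apart in this comparison. Control nanoparticles with eGFP mRNA alone, given to cells in IL-4 in the same labelled amount and time (eGFP-NP, 4 samples), are therefore set beside the results. BMDMs that received 20 ng/mL MPLA (monophosphoryl lipid A, a Toll-like receptor agonist) for 4 days in place of IL-4 and no particles (MPLA, 4 samples) are given for a few genes. The study describes the samples behind its plots as biologically independent, with a number that matches neither group, and no source used here gives the strain or age of the marrow donors or ties a sample to an animal or culture. The p-values therefore measure the spread between these samples, which may in part be technical.

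IL-4 acts on macrophages through its receptor and the transcription factor STAT6, and in mouse cells it raises genes such as Retnla, Mrc1 and Chil3, the classical marks of alternative (M2-like) activation. IRF5 is a transcription factor downstream of Toll-like receptors and MyD88. It is phosphorylated by IKKβ and is known for driving inflammatory cytokine genes in M1-like macrophages. Macrophages also display peptides on MHC class II for CD4+ T cells and secrete C1q, the subunit complex that opens the classical complement pathway.

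Libraries of one group differed widely. Summed gene counts were 1087549 to 1639968 in IL4 and 1510011, 1417820 and 266169 in IRF5-NP 1, 2 and 4. Background, the mean of the 8 negative controls plus 2 SD, lay between 20.3 and 34.9 counts in these 7 libraries, which was 14.1 to 31.5 CPM in IL4 and 26.0, 23.4 and 65.8 CPM in IRF5-NP 1, 2 and 4. IRF5-NP 1 and 2 were nearly the same measurement, their chi-square statistic over genes divided by its degrees of freedom being 1.63, against 843 and 860 when IRF5-NP 2 and 1 were set against IRF5-NP 4. For the eGFP-NP samples 1 and 2 the same ratio was 1.09, and the chi-square test found no difference beyond sampling noise (p = 0.0817), so they were summed to 1 library, and eGFP-NP 3 and 4 were also close (1.36). All macrophage defining markers on the panel other than Aif1, among them Csf1r, Adgre1 and Cd68, were above background in every IL4 library, and their mean over 15 markers was 9.62 to 10.45 log2 CPM in IL4 and 10.27, 10.37 and 9.02 in IRF5-NP. Fibroblast markers were also present: the mean of 8 markers was 10.61, 11.49 and 9.75 log2 CPM in IL4 1, 2 and 4 and 10.77 in IRF5-NP 4, but 4.57 in IL4 3 and 3.91 and 3.92 in IRF5-NP 1 and 2. Mean levels of neutrophil, eosinophil, mast cell, dendritic cell, lymphocyte and endothelial markers lay between 3.30 and 5.96 log2 CPM in the 7 libraries. In bulk samples like these, fewer cells of a type and less RNA per cell cannot be told apart. IL4 2 stood apart from the other IL4 libraries by high interferon-type transcripts, with Cxcl9 at 16680 CPM against 16.0 to 32.5 CPM.

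**Figure D1:**
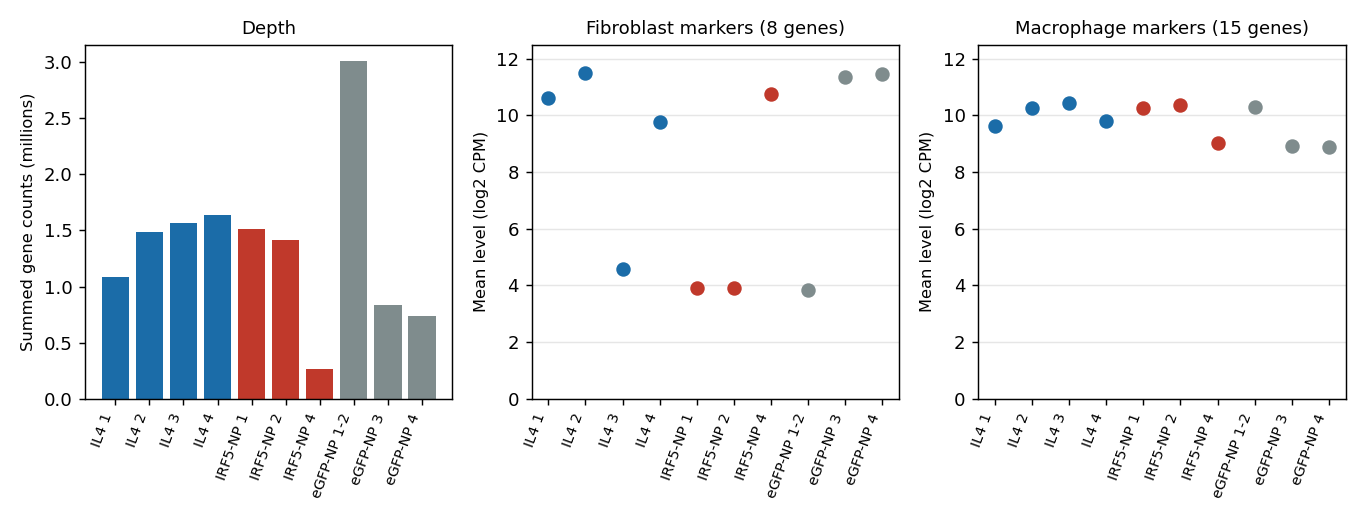
Summed gene counts (left), mean fibroblast marker level (middle, log2 CPM over 8 genes) and mean macrophage marker level (right, log2 CPM over 15 genes) for the 4 IL4 (blue), 3 IRF5-NP (red) and 3 eGFP-NP (grey) libraries, 1 bar or point per library. IRF5-NP 4 had the lowest depth (266169 counts), and IL4 3 with IRF5-NP 1 and 2 had fibroblast means of 3.91 to 4.57 while the other IL4 and IRF5-NP libraries lay at 9.75 to 11.49.

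Levels are given in CPM, which are counts divided by the TMM-scaled library size, and differences as IRF5-NP minus IL4 on the log2 scale ± SE from edgeR's quasi-likelihood fit. Across the 754 genes no difference passed a Benjamini-Hochberg adjusted p of 0.05 in edgeR (0% of genes called), and the smallest adjusted p was 0.394, shared by Ccl24 and Pf4. Without adjustment, 33 genes were lower at a p under 0.05 (4.38%) and 20 were higher (2.65%). Of the 33 lower genes, 32 exceeded background in every IL4 library, whereas 3 of the 20 higher genes did so in every IRF5-NP library. DESeq2, run on the same counts, called 19 genes (2.52%), 14 of them lower and 5 higher, and limma called 0. The DESeq2 fit took the nearly identical IRF5-NP 1 and 2 as separate replicates and was not repeated with them summed. Its adjusted p-values, here and below, may therefore be too small. The median difference over all genes was -0.14. In 43 genes every IRF5-NP library lay below every IL4 library (5.7% of genes), and all 43 exceeded background in all IL4 libraries. Scaled to macrophage markers in place of TMM, 25 genes lay wholly below and 12 measurable genes wholly above. In 24 genes every IRF5-NP library lay above (3.18%), but 15 of those were below background in all 3 IRF5-NP libraries and only Pf4, Rhoj and C5ar1 exceeded it in all 3. For 4 libraries against 3, complete separation corresponds to a two-sided exact permutation p of 0.0571, the smallest this design allows for a single gene. With the nearly identical IRF5-NP 1 and 2 counted as 1 replicate, 4 against 2, the smallest would be 0.133. The separation was often narrow: the lowest IL4 library exceeded the highest IRF5-NP library by a median of 1.31-fold over the 43 genes, by more than 2-fold in 4 of them and by at most 5.65-fold, for Retnla. IRF5-NP 4, which was shallow and also high in fibroblast markers, weighed most on these counts. Without it 99 genes lay wholly below IL4 and 90 wholly above it, counting genes over background in every library of the higher group. Only the nearly identical IRF5-NP 1 and 2 then remain against IL4. Over all libraries left out in turn, the counts were 47 to 99 below and 3 to 90 above, and the reason was not tested.

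**Figure D2:**
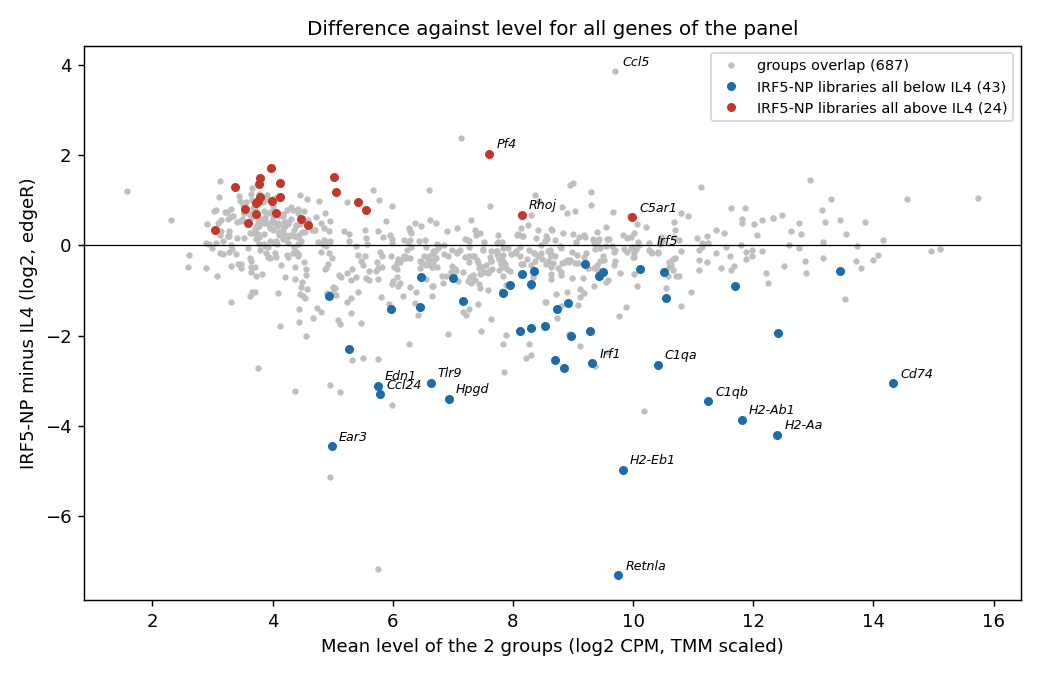
Difference between IRF5-NP and IL4 (vertical axis, log2, edgeR) against the mean level of both groups (horizontal axis, log2 CPM) for 754 genes, 1 point per gene. The 43 genes whose IRF5-NP libraries all lay below IL4 (blue) exceeded background in every IL4 library and reach down to -7.31 for Retnla. The 24 that all lay above (red) lie mostly at low levels except Pf4 (2.03), Rhoj (0.68) and C5ar1 (0.62).

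Genes that IL-4 is known to raise made up part of the lower set. Of the 32 measured genes of the IL-4 response list, 7 lay wholly below IL4 (Retnla, Ear3, Hpgd, Ccl24, Edn1, Ccl8 and Socs1), against 5.7% of all genes, and 1, Alox15, lay wholly above while under background in all 7 libraries. At an unadjusted p under 0.05, 9 were lower and 0 higher, 21 had a negative and 11 a positive fitted difference, and the list median was -0.43 against -0.14 over all genes. Retnla, which encodes the secreted resistin-like molecule alpha, gave the largest difference of all genes in the main fit. With a library left out it ranged from -7.70 to -6.45, and without IRF5-NP 4 the difference of Cxcl9 was larger in size (-8.44). The level of Retnla was 47310, 1065, 24330 and 8141 CPM in IL4 1 to 4 and 183, 188 and 10.2 CPM in IRF5-NP 1, 2 and 4, the last under background. The lowest IL4 library, IL4 2, was still 5.65-fold above the highest IRF5-NP library, and the fitted difference was -7.31 ± 1.75 (edgeR adjusted p = 0.435, DESeq2 adjusted p = 2.51e-07).

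The Retnla promoter holds a match to the STAT6 motif TTCNNNNGAA, where N is any base, and is shown here because STAT6 carries the IL-4 signal. The window runs from 250 bases before to 50 bases after the transcription start in RefSeq's GRCm38.p6 annotation, and capitals mark the motif, which begins 145 bases before the start. The strand is plus and the position is chr16:48842359-48842658.
Retnla: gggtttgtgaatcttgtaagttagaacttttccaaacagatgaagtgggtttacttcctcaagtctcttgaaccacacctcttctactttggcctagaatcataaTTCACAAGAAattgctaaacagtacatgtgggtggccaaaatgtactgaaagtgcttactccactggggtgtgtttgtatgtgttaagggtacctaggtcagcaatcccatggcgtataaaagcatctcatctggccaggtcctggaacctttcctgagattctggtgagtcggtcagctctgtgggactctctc
The motif was present in 3 of the 33 lower genes with a listed promoter (9.09%; Retnla, Edn1 and Pros1), in 36 of 578 panel genes (6.23%) and in 1888 of 27025 mouse promoters (6.99%). An ISRE-like motif, GAAANNGAAA on either strand, was found in 3 of the 33 (9.09%; Socs1, Edn1 and Tnfrsf14), in 5.54% of panel genes and in 3.49% of all promoters. A match is a string in a window and says nothing of binding.

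The eosinophil chemoattractant gene Ccl24 had the smallest p of the lower genes. It was counted at 266, 91.7, 244 and 103 CPM in IL4 and at 12.3, 23.1 and 18.3 CPM in IRF5-NP, where every library was below background, so that the fitted difference of -3.29 ± 0.59 (DESeq2 adjusted p = 1.65e-06) is set in part by the floor of the assay. Ccl8, another CC chemokine, was measurable in all 7 libraries at 397, 1281, 1645 and 1098 CPM in IL4 and 124, 135 and 308 CPM in IRF5-NP, a difference of -2.55 ± 0.63. Both genes were lower in every IRF5-NP library, with a wide gap for Ccl24 and a gap of 1.29-fold for Ccl8. Hpgd, which encodes the enzyme that inactivates prostaglandins by oxidation, was at 748, 687, 119 and 220 CPM in IL4 and 43.0, 42.1 and 40.6 CPM in IRF5-NP, the last under background (-3.40 ± 0.75). Ear3, an eosinophil-associated ribonuclease gene, was at 66.4, 15.3, 621 and 104 CPM against 9.21, 9.91 and 8.12 CPM, all of the latter under background, so the size of its difference is not given. Its relative Rnase2a was at 9747, 229, 14060 and 9840 CPM in IL4 and 966, 1001 and 32.5 CPM in IRF5-NP, so that it overlapped only through IL4 2. Edn1, the precursor gene of the vasoconstrictor endothelin, was at 403, 61.9, 88.5 and 164 CPM against 10.7, 18.2 and 34.5 CPM, again all under background. Socs1, a feedback inhibitor of JAK-STAT signalling, was at 502, 1308, 360 and 808 CPM against 273, 235 and 136 CPM (-1.79 ± 0.56). In all of these but Rnase2a the groups did not overlap.

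Other well-known IL-4 genes overlapped. The mannose receptor gene Mrc1 was at 3773, 662, 2786 and 5940 CPM in IL4 against 4751, 4934 and 519 CPM in IRF5-NP, a difference of 0.05 ± 0.91. Chil3 was at 1071, 9.03, 2548 and 467 CPM against 3901, 4025 and 26.4 CPM, with IRF5-NP 1 and 2 above every IL4 library. Pparg, the nuclear receptor gene, was at 503, 43.8, 407 and 372 CPM against 452, 436 and 69.0 CPM, and Flt1, a VEGF receptor gene, at 208, 172, 326 and 475 CPM against 443, 468 and 22.3 CPM. In each of these 4 genes IRF5-NP 1 and 2 lay within or above the IL4 range and IRF5-NP 4 lay far below them, under background for Chil3 and Flt1. Ccl11, the eotaxin gene, was at 87.7, 25.7, 8.13 and 64.2 CPM in IL4 and 7.67, 5.78 and 32.5 CPM in IRF5-NP, all 3 under background, and IRF5-NP 4 lay above IL4 2 and 3. Serpinb2, encoding a plasminogen activator inhibitor, was at 60.4, 5.56, 19.0 and 257 CPM against 9.97, 7.43 and 110 CPM, and its difference of -1.06 ± 1.42 turned to 0.53 without IL4 4. Among components of IL-4 signalling, Stat6 itself was at 1010, 933, 927 and 957 CPM in IL4 and 1326, 1356 and 603 CPM in IRF5-NP (0.19 ± 0.40), and of the 9 measured genes on that list only Socs1 and Stat3 were separated, both lower, beside 5.7% of all genes. Stat3 was at 665, 1461, 697 and 766 CPM against 529, 521 and 635 CPM, and its difference of -0.68 ± 0.41 became -0.22 without IL4 2.

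**Figure D3:**
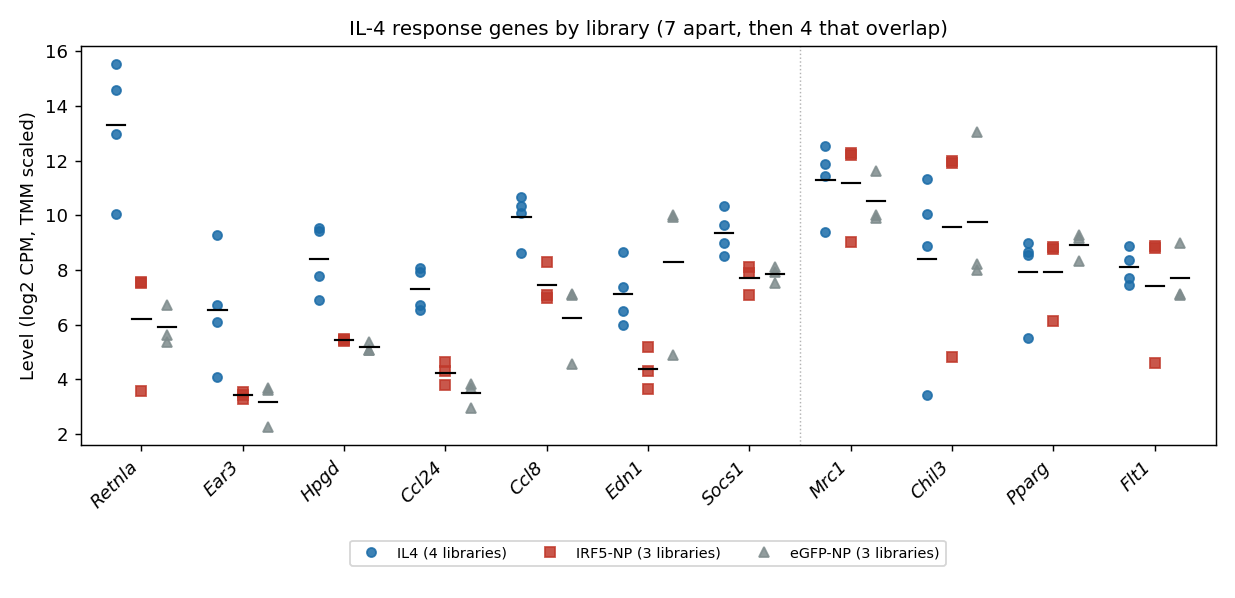
Levels of 11 IL-4 response genes (log2 CPM, vertical axis), with 1 point per library for IL4 (blue circles), IRF5-NP (red squares) and eGFP-NP (grey triangles) and bars at group means. The 7 genes left of the dotted line have all red squares below all blue circles, and in the 4 on the right IRF5-NP 4 is the low square (Flt1 22.3 CPM) while IRF5-NP 1 and 2 sit among or above the circles.

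The route through which the cargo is known to act was read next. Irf5 was at 1440, 1380, 1732 and 1092 CPM in IL4, at 1775, 1731 and 416 CPM in IRF5-NP, and at 2027, 1015 and 1076 CPM in eGFP-NP 1-2, 3 and 4. IRF5-NP 1 and 2 were thus at the top of the IL4 range and IRF5-NP 4 below it, and the difference was -0.11 ± 0.55 (edgeR adjusted p = 0.956), or 0.31 without IRF5-NP 4. The delivered message is described as codon-optimized, and whether the panel probe binds it is not given in the sources used here, so Irf5 counts check neither the delivery nor the labels. Ikbkb, which encodes IKKβ, was not analysed here. Of the 12 measured genes on the list of the IRF family and the route to IRF5, all had a negative fitted difference, as did 433 of all 754 genes, the median was -0.35 against -0.14 over all genes, and 2 were separated, both lower, beside 5.7% of all genes. Irf1, an interferon-induced transcription factor gene, was at 564, 4971, 1863 and 475 CPM in IL4 and 341, 362 and 266 CPM in IRF5-NP (-2.61 ± 0.91). Tlr9, the endosomal DNA sensor gene, was at 72.3, 989, 208 and 152 CPM against 42.2, 38.0 and 48.7 CPM (-3.05 ± 0.96), the last of which was under background. Both genes were lower in every IRF5-NP library, and without IL4 2 their differences were -1.48 and -1.64. Myd88 was at 317, 434, 321 and 307 CPM against 323, 339 and 264 CPM, and Irf8 at 334, 1052, 740 and 354 CPM against 658, 638 and 144 CPM, so both overlapped.

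Inflammatory genes were read for a difference in the other direction. Of the 41 measured genes of the inflammatory M1 list, 1 was higher and 1 lower at an unadjusted p under 0.05, 12 had a positive and 29 a negative fitted difference, the median was -0.17, and 2 were separated, both lower (Irf1 and the costimulatory receptor gene Cd40), a share near the 5.7% of all genes. The 1 higher gene was Ccl5, a chemokine gene for T cells and monocytes, with 34.9, 1281, 241 and 85.2 CPM in IL4 and 8515, 8584 and 824 CPM in IRF5-NP. IRF5-NP 1 and 2 lay far above all IL4 libraries and IRF5-NP 4 lay below IL4 2, and the difference was 3.86 ± 1.36 (edgeR adjusted p = 0.588). In eGFP-NP it was at 83.6, 1876 and 1927 CPM, which overlapped both groups. Tnf was at 93.6, 350, 116 and 75.9 CPM against 122, 98.3 and 205 CPM. The monocyte chemoattractant gene Ccl2 was at 9204, 6778, 1348 and 22690 CPM against 4306, 4564 and 19800 CPM. Nos2, the inducible nitric oxide synthase gene, was at 26.4, 154, 47.9 and 20.4 CPM against 20.7, 23.1 and 67.0 CPM. These 3 overlapped, and Il1a, Il1b, Il6, Il12b and Il23a each exceeded background in at most 3 of the 7 libraries.

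The list of interferon-stimulated genes, which also takes in genes of interferons and their receptors, had 21 measured members. Of these, 3 lay below IL4 in every IRF5-NP library (Irf1, Psmb9 and the interferon gamma receptor gene Ifngr1), beside 5.7% of all genes. The list median was -0.88 against -0.14 over all genes. Another, Ifng, lay wholly above but under background in all 7 libraries, and it and Ccl5 were the 2 members higher at an unadjusted p under 0.05, where 3 were lower. The list leaned on 1 control library: its mean level was 6.38, 9.04, 7.00 and 6.38 log2 CPM in IL4 1 to 4 and 6.79, 6.81 and 7.12 in IRF5-NP, so all IRF5-NP libraries lay above IL4 1 and 4. Cxcl9 was at 23.0, 16680, 32.5 and 16.0 CPM in IL4 against 11.5, 12.4 and 64.9 CPM, and its difference of -7.17 ± 3.10 became 0.32 without IL4 2.

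**Figure D4:**
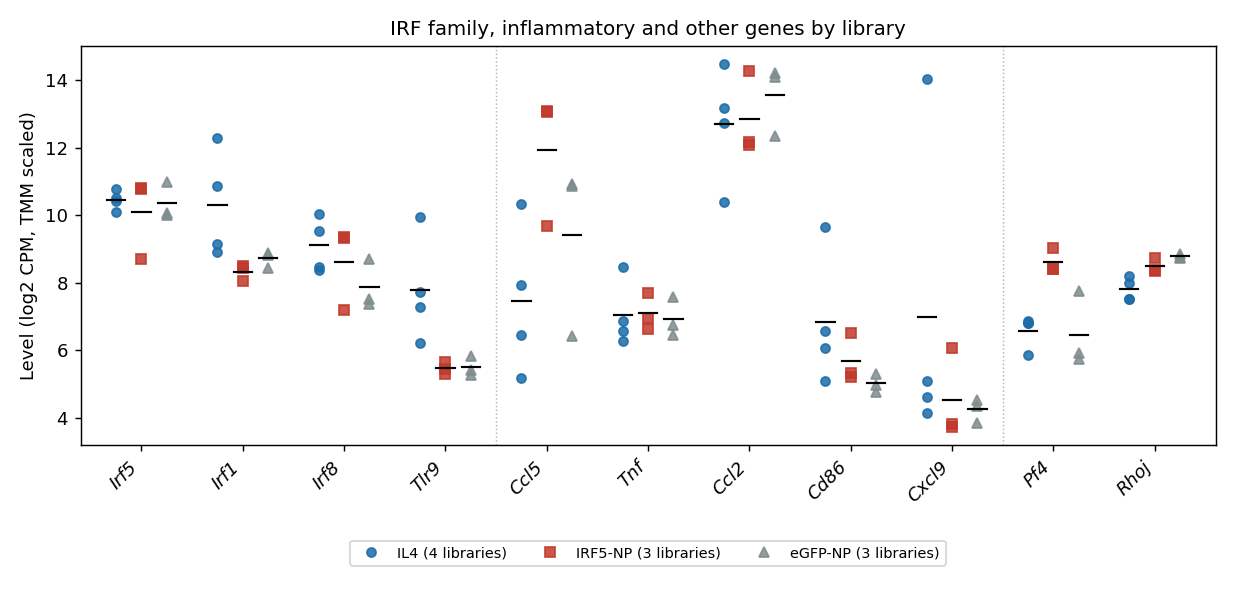
Levels (log2 CPM, vertical axis) of 4 genes of the IRF route, 5 inflammatory genes and 2 genes that were higher, with 1 point per library for IL4 (blue circles), IRF5-NP (red squares) and eGFP-NP (grey triangles) and bars at group means. Irf1 and Tlr9 are separated downward and Pf4 and Rhoj upward, while Irf5, Tnf and Ccl2 overlap, and Ccl5 overlaps only because IL4 2 (1281 CPM) lies above IRF5-NP 4 (824 CPM).

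The list of MHC class II and costimulation genes held more downward separations than any other list fixed for the comparison, although no member passed adjustment in edgeR. Of 19 measured genes, 8 lay wholly below IL4 (H2-Eb1, H2-Aa, H2-Ab1, Cd74, H2-DMa, H2-DMb1, Cd83 and Cd40), against 5.7% of all genes, 6 were lower and 1 higher at an unadjusted p under 0.05, and the median was -1.41. H2-Aa, encoding the alpha chain of I-A, was at 3990, 40580, 80650 and 8873 CPM in IL4 and 2389, 2419 and 686 CPM in IRF5-NP (-4.19 ± 1.23, DESeq2 adjusted p = 0.0031). Its partner chain gene H2-Ab1 was at 2164, 28200, 45050 and 4915 CPM against 1782, 1855 and 497 CPM (-3.87 ± 1.22). H2-Eb1, the I-E beta chain gene, was at 614, 10440, 17940 and 1818 CPM against 295, 339 and 99.4 CPM (-4.97 ± 1.33, DESeq2 adjusted p = 0.000318). All 3 genes ranked the IL4 libraries alike, highest in IL4 3 and lowest in IL4 1, and the nearest pair, IL4 1 and IRF5-NP 2, differed by 1.17-fold to 1.81-fold. Cd74, the invariant chain gene, was at 17870, 108000, 176100 and 38300 CPM against 14710, 14400 and 1662 CPM (-3.05 ± 1.12). The peptide exchange genes H2-DMa and H2-DMb1 differed by -2.71 ± 0.86 and -2.01 ± 0.71. Cd83, a surface protein gene of activated antigen-presenting cells, was at 711, 901, 980 and 698 CPM against 434, 436 and 54.8 CPM, the last under background (-1.41 ± 0.68, or -0.92 without IRF5-NP 4). Cd40 was at 87.7, 241, 62.3 and 50.0 CPM against 47.6, 44.6 and 32.5 CPM, with IRF5-NP 4 under background (-1.40 ± 0.63, or -0.55 without IL4 2).

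The same list held genes with no such separation, among them the class II genes H2-DMb2 (-1.10 ± 0.73) and H2-Ob. H2-Ob was at 7.66, 336, 32.5 and 13.0 CPM in IL4 and 8.44, 9.08 and 14.2 CPM in IRF5-NP, above background only in IL4 2 and 3. Ctss, the cathepsin gene that trims the invariant chain, was at 31730, 33730, 104200 and 29810 CPM against 67160, 68710 and 5318 CPM. Cd80 was at 116, 103, 88.5 and 223 CPM against 213, 199 and 179 CPM, and Cd86 at 32.3, 797, 93.0 and 66.0 CPM against 35.3, 38.8 and 89.3 CPM. Tnfsf4, the OX40 ligand gene, was the 1 member higher at an unadjusted p under 0.05, at 44.3, 16.0, 53.3 and 25.3 CPM against 86.7, 102 and 52.8 CPM, where IRF5-NP 4 was under background and below IL4 3. Within the libraries low in fibroblast markers, IL4 3 against IRF5-NP 1 and 2, the 8 separated genes of the list differed by -5.82 (H2-Eb1) to -0.42 (Cd40). Within those high in them, IL4 1, 2 and 4 against IRF5-NP 4, they differed by -4.66 (Cd74) to -1.61 (Cd40). The split was made after the data were seen, each side holds a single library of 1 group, and the shared sign is fixed by the separation of the groups, so these are values with no test, and the part of the fibroblast content in the difference was not tested.

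The promoters of H2-Aa and H2-Eb1 are shown because both genes were lower in every IRF5-NP library and share a short element. Capitals mark the Y box core CTGATTGG, a known class II promoter element whose letters were added after the sequences were seen, and in H2-Aa also an earlier stretch that matches the κB consensus. The H2-Aa window is on the minus strand at chr17:34287774-34288073, and the H2-Eb1 window on the plus strand at chr17:34305617-34305916, both in GRCm38.p6 from RefSeq.
H2-Aa: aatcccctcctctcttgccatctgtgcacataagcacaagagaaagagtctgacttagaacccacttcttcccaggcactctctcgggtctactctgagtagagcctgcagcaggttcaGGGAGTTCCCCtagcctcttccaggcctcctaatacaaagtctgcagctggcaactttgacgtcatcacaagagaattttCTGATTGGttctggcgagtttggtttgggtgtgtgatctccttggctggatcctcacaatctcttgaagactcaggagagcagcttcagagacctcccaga
H2-Eb1: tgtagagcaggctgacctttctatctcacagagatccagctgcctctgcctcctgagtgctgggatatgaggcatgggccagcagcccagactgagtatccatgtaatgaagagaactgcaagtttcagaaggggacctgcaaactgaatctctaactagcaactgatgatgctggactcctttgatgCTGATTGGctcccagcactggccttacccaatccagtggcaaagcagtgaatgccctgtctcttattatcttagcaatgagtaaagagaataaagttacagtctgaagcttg
The Y box core begins 51 bases before the start in H2-Aa and 62 bases before it in H2-Eb1, and was present in 4 of the 33 lower genes (12.1%; also Psmb9 and Bcl10), in 25 of 578 panel genes (4.33%) and in 4.31% of all promoters, with both strands searched. The κB consensus was present in 21.2% of the lower genes, 15.1% of panel genes and 8.18% of all promoters. Promoters of H2-Ab1 and Cd74 were not used here.

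Of the 10 measured complement genes, 3 lay wholly below IL4, beside 5.7% of all genes, and 1 wholly above, beside 3.18%. The 3 lower ones were the genes for the chains of C1q. C1qa was at 1417, 10440, 2318 and 2076 CPM in IL4 and 799, 693 and 457 CPM in IRF5-NP (-2.64 ± 0.83), C1qb at 3552, 25680, 5819 and 4611 CPM against 1096, 1131 and 477 CPM (-3.46 ± 0.91), and C1qc at 5289, 27790, 8501 and 7283 CPM against 3812, 3866 and 1879 CPM (-1.94 ± 0.73). IL4 2 was the highest library for each chain, but the other IL4 libraries were above all IRF5-NP libraries too, and without IL4 2 the differences were -1.45, -2.25 and -1.01. C5ar1, the receptor gene for the fragment C5a, was at 494, 1070, 1148 and 647 CPM against 1298, 1243 and 1339 CPM (0.62 ± 0.42), with an unadjusted edgeR p of 0.173, and the receptor gene for C3a, C3ar1, overlapped at 7215, 6560, 12270 and 5954 CPM against 19100, 18880 and 3462 CPM. C3 was at 298, 3545, 3504 and 477 CPM against 600, 622 and 761 CPM. In all, 5 complement genes had a positive and 5 a negative fitted difference.

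**Figure D5:**
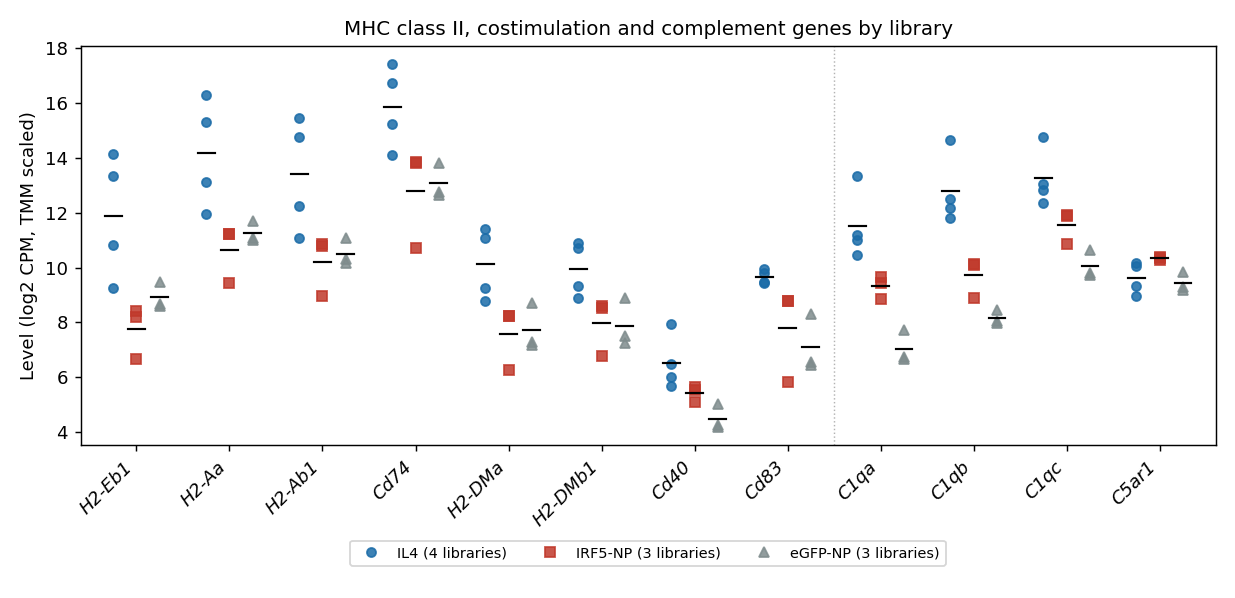
Levels (log2 CPM, vertical axis) of 8 MHC class II and costimulation genes and 4 complement genes, with 1 point per library for IL4 (blue circles), IRF5-NP (red squares) and eGFP-NP (grey triangles) and bars at group means. All red squares lie below all blue circles except for C5ar1, where they lie above, and the grey triangles of C1qa, C1qb and C1qc (C1qa 101 to 210 CPM) lie below the red squares (457 to 799 CPM).

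Pf4, which encodes the chemokine platelet factor 4 (CXCL4), was the higher gene with the smallest p and the 1 measured gene of the platelet and megakaryocyte marker list. Its level was 110, 57.0, 115 and 110 CPM in IL4 and 340, 339 and 519 CPM in IRF5-NP, so every IRF5-NP library exceeded every IL4 library, and the difference was 2.03 ± 0.39 (edgeR adjusted p = 0.394, DESeq2 adjusted p = 1.49e-07). In eGFP-NP it was at 213, 58.4 and 51.4 CPM, below all IRF5-NP libraries. Rhoj, a small GTPase gene, was at 289, 182, 180 and 252 CPM against 334, 326 and 426 CPM (0.68 ± 0.34). Of the other higher genes that DESeq2 called, S100a8, a calcium-binding protein gene abundant in neutrophils, was at 15.3, 18.8, 29.8 and 11.7 CPM against 62.9, 57.0 and 40.6 CPM, and Cxcr3, a chemokine receptor gene, at 19.6, 22.2, 26.2 and 16.0 CPM against 47.6, 38.0 and 58.8 CPM. Both exceeded background in 2 of 3 IRF5-NP libraries. Ctsg and Fpr-rs3 were under background in all 7 libraries, and no statement on their direction is made. Background was highest in IRF5-NP 4, at 65.8 CPM, and its part in these low genes was not tested.

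The other separated genes above background in every library of the higher group were lower in IRF5-NP and of mixed function. Csf3r, the G-CSF receptor gene, was at 70.6, 91.0, 163 and 30.2 CPM in IL4 and 18.4, 19.0 and 16.2 CPM in IRF5-NP, under background in all 3. Nfil3, a basic leucine zipper transcription factor gene, was at 824, 929, 580 and 714 CPM against 312, 350 and 278 CPM (-1.28 ± 0.34, DESeq2 adjusted p = 0.0088), one of the tighter differences. Mmp19, a matrix metalloproteinase gene, was at 357, 575, 1330 and 308 CPM against 183, 178 and 185 CPM (-1.82 ± 0.59, or -1.19 without IL4 3). The interleukin 6 receptor gene Il6ra (192, 275, 231 and 236 CPM against 137, 121 and 38.6 CPM) and the TNF receptor genes Tnfrsf14 (-1.36 ± 0.52) and Tnfrsf1a (-0.58 ± 0.39) were lower in each IRF5-NP library, but without IL4 2 the latter pair differed by -0.74 and -0.25. Gadd45b, a stress-response gene, was at 284, 304, 456 and 305 CPM against 180, 179 and 193 CPM.

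The control particles were set beside these results. Over the 43 lower genes the median eGFP-NP minus IL4 difference was -1.75, and over all genes -0.08. Both comparisons share the 4 IL4 libraries, on whose high values the 43 genes were chosen, so the low values in eGFP-NP are in part built in and are no separate evidence. Tested directly, IRF5-NP and eGFP-NP differed in no gene at an edgeR adjusted p of 0.05 (0% called), in 7 genes by DESeq2, and in 42 genes at an unadjusted p under 0.05 (5.57%). With the fibroblast marker mean as a covariate edgeR called 16 genes, but the spread in that fit comes largely from the nearly identical pairs IRF5-NP 1 and 2 and eGFP-NP 3 and 4, so it may be close to technical noise and the calls are not used here. Of the 43 genes, 6 were at an unadjusted p under 0.05, 3 lay wholly below and 6 wholly above eGFP-NP, beside 46 and 64 of all 754 genes. The same nearly identical pairs enter these counts as separate libraries, so a lack of overlap with eGFP-NP carries less weight than the number of libraries implies. H2-Aa was at 3300, 2049 and 2140 CPM in eGFP-NP, Cd74 at 14460, 6457 and 6920 CPM, Retnla at 103, 47.3 and 40.1 CPM, and Ccl24 at 12.6, 6.01 and 11.3 CPM, each overlapping IRF5-NP. Retnla overlapped only through IRF5-NP 4, where it was under background, and IRF5-NP 1 and 2 lay above all eGFP-NP libraries. Ccl24 was under background in every library of both groups. H2-Eb1 was at 716, 382 and 405 CPM in eGFP-NP, above all IRF5-NP libraries (-1.06 ± 0.50). The C1q genes were higher in IRF5-NP than in eGFP-NP in every library, by 2.23 for C1qa, 1.62 for C1qb and 1.51 for C1qc, with edgeR adjusted p-values of 0.579, 0.805 and 0.83. Edn1 was at 28.0, 991 and 1032 CPM in eGFP-NP, so it was low in the library pool 1-2 and high in 3 and 4. IRF5-NP was under background for it. The fibroblast marker mean of those eGFP-NP libraries was 3.84, 11.36 and 11.45 log2 CPM, and its part in the Edn1 level was not tested. The MPLA standards held H2-Aa at 1599 to 2189 CPM, C1qa at 299 to 350 CPM and Retnla at 3.09 to 4.89 CPM, the last under background.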

How the data were processed

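The values were raw nCounter probe counts, deposited by the authors without scaling: 754 genes, 6 positive and 8 negative controls. The methods name a quality check of the raw data and, for the study's own tests, scaling to housekeeping genes and log2 transformation, which these counts had not had. Samples were grouped by title. The control probes were left out of library sizes. IRF5-NP and IL4 were compared by edgeR 4.0.16 (R 4.3.3) with TMM scaling, glmQLFit and glmQLFTest, without covariates or a low count filter, with Benjamini-Hochberg adjustment over 754 genes and a threshold of 0.05. IRF5-NP and eGFP-NP were compared in the same way. The SE was taken from the log2 difference and the F statistic (difference over root F). A gene exceeded background in a library when its count was above the mean plus 2 SD of the negative controls. Log2 CPM used a prior count of 2. Summed gene counts ran from 266169 to 1639968 in the 7 libraries, and the precision of low genes in IRF5-NP 4 was limited accordingly. Alternatives included DESeq2 1.42.0, limma 3.58.1, the t-test of the methods, other scalings, a filter, background subtraction, a fibroblast covariate, the replicate block and leaving out each library. The procedure was also run on simulated counts of independent libraries with the same spread for all genes. Libraries of one group differed widely here and IRF5-NP 1 and 2 were nearly the same, so that run does not show how the procedure performs on them.

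The rule for named genes took the preset genes that were measured (Irf5, Ccl5, Serpinb2, Ccl11 and Retnla), up to 12 separated genes above background with the smallest p in each direction (12 lower, 3 higher), the member of each list with the smallest p in each direction, and genes called by DESeq2. Others named (Aif1, Alox15, Bcl10, C1qc, C3, C3ar1, Ccl2, Cd40, Cd68, Cd74, Cd80, Cd83, Cd86, Chil3, Csf1r, Ctss, Flt1, Gadd45b, H2-D1, H2-DMa, H2-DMb1, H2-DMb2, H2-K1, H2-M3, H2-Ob, H2-Q1, H2-Q2, H2-Q10, H2-T23, Psmb8, Tap2, Tapbp, Ifng, Ifngr1, Il12b, Il1a, Il1b, Il23a, Il6, Irf8, Mrc1, Myd88, Nampt, Nos2, Pparg, Pros1, Psmb9, Psme2, Rnase2a, Stat3, Tap1, Tnf and Tnfrsf1a) were chosen after their values were seen. The members and lists were chosen with earlier results of these data known. Promoters came from RefSeq (GRCm38.p6), with 578 panel genes listed.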

Additional observations from a re-analysis of the deposited data

Results flagged for a closer look

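Among 82 named or listed genes examined in the 4 IL4 libraries, 5 had 1 library far from the other 3. All of them but Gadd45b were flagged for IL4 2, the library that stood apart by interferon-type transcripts. The genes share the same libraries and many were chosen for their separation, so the number is not compared with a chance rate. In IL4 2, Pf4 was at 5.87 log2 CPM while the others lay at 6.80 to 6.86. The dendritic cell gene Clec9a was at 7.47 log2 CPM in IL4 2 and at 2.93 to 3.60 in the others. Cxcl9 was at 14.03 log2 CPM in IL4 2 and at 4.15 to 5.10 in the others. Nampt, an enzyme gene of NAD synthesis, was at 12.4 log2 CPM in IL4 2 and at 10.56 to 10.72 in the others. Gadd45b was at 8.84 log2 CPM in IL4 3 and at 8.16 to 8.26 in the others.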

How the results depend on the processing

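Against IL4, the count of 0 genes at an edgeR adjusted p under 0.05 became 19 with DESeq2 and 2 with all groups in 1 fit, and stayed at 0 under the other alternatives, with each library left out (0 to 0) and with the replicate block. Deviations of same-numbered samples from their group means correlated at 0.17, -0.08 and 0.02 over 369 genes. Since IRF5-NP 1 and 2 are nearly the same measurement, these deviations mostly set IRF5-NP 1 and 2 against IRF5-NP 4. Whether the replicate numbers pair the samples therefore cannot be decided from them. Against eGFP-NP, 0 became 7 with DESeq2, 1 with all groups in 1 fit, 16 with the fibroblast covariate, 14 with that covariate and a low count filter (chosen after seeing the data) and 2 with eGFP-NP 1 and 2 separate, and leaving out a library gave 0 to 0. The 43 genes separated downward became 25 under macrophage marker scaling and 47 to 99 with a library left out. The 3 separated upward became 7 under housekeeping scaling, 5 under median-of-ratios scaling, 12 under macrophage marker scaling, 5 with IRF5-NP 1 and 2 summed, 10 with background subtracted and 3 to 90 with a library left out (90 without IRF5-NP 4). Macrophage marker scaling moved the median of all genes from -0.14 to 0.08. The cause of each change was not tested.

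Signs turned for genes with small or noisy differences. Irf5 was 0.0313 with DESeq2 and 0.0308 with median-of-ratios scaling, 0.016 with all groups in 1 fit, -0.88 with the fibroblast covariate, -0.87 with the filter added and -0.39 to 0.31 with a library left out. Stat6 was -0.14 with the fibroblast covariate and -0.12 with the filter added. Tek was 0.45 under macrophage marker scaling, 0.22 with the fibroblast covariate, 0.23 with the filter added, 0.12 with IRF5-NP 1 and 2 summed and -0.93 to 0.39 with a library left out. Col12a1 was -1.40 with limma, -1.33 with the methods' test under both adjustments, -3.60 with the replicate block and -4.45 to 1.13 with a library left out. With background subtracted, Flt3 was -0.86 and Ms4a1 -1.15. With a library left out, Flt3 ranged from -0.043 to 0.58, Klrk1 from -2.90 to 0.14, Serpinb2 from -3.28 to 0.53 and Cxcl9 from -8.44 to 0.32. The depth of IRF5-NP 4 limits every statement on genes under its background of 65.8 CPM.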

Other observations

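Some genes of MHC class I and its peptide supply were looked at after their values were seen, with no list fixed for them, so no share is drawn from them. The class I gene H2-Q1 was at 619, 2460, 1728 and 658 CPM in IL4 and 470, 465 and 166 CPM in IRF5-NP (-1.89 ± 0.69). Psmb9, an immunoproteasome subunit gene, was at 263, 1509, 549 and 206 CPM against 186, 200 and 122 CPM (-1.90 ± 0.76), or -0.89 without IL4 2. H2-M3 and the proteasome activator gene Psme2 were separated as well, by -0.71 ± 0.37 and -0.90 ± 0.50, or -0.46 and -0.35 without IL4 2. The classical genes H2-K1 (9203, 38430, 22380 and 10520 CPM against 10940, 11200 and 4500 CPM) and H2-D1, the peptide transporter genes Tap1 and Tap2, H2-T23, Psmb8 and Tapbp overlapped, and so did H2-Q2 and H2-Q10, which were at or near background.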
